A study of Mus musculus with 2 samples.

Results

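The miR-200 family of the mouse comprises 5 microRNA (miRNA) genes, namely Mir200b, Mir200a and Mir429 on chromosome 4 and Mir200c and Mir141 on chromosome 6. The members were taken by name from the 1973 miRNA genes of the count tables, through their Ensembl gene identifiers, and all 5 of 5 were found and passed a minimum of 10 sense counts in both libraries. The libraries came from limbs of B6NCrl mouse embryos at embryonic day 15.5, with male and female embryos pooled, 78 embryos for replicate 1 and 62 for replicate 2. Small RNA below 30 nt was sequenced from total RNA, and the series had 1 group of 2 biological replicates with no second tissue, stage or treatment. Sense counts over miRNA genes came to 4263630 in replicate 1 and 5151214 in replicate 2, and 340 genes were detected in both. Levels are given as sense counts scaled to a library total of 1000000 (CPM). This unit compares reads counted and does not correct for unequal capture of different miRNA sequences. In whole limbs, fewer cells of a type and less RNA per cell cannot be told apart.

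A miRNA is cut as a short duplex from a hairpin precursor, and the strand loaded into Argonaute recognises messenger RNAs mainly through its seed, bases 2 to 8 from the 5′ end. The miR-200 family is known as an epithelial family: its members repress Zeb1 and Zeb2, transcription factors that turn off the adhesion gene Cdh1 (E-cadherin) and drive epithelial cells towards a mesenchymal state, and the Zeb proteins in turn repress both miR-200 gene clusters. In the embryonic limb the main epithelium is the surface ectoderm that becomes the epidermis and, locally, hair follicles, and miR-200 miRNAs are known to be abundant in embryonic skin.

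The mature sequences of the 3′ arm, the arm known to be loaded for this family, are shown first because the seed divides the 5 genes into 2 groups. They are given 5′ to 3′ with the seed in capitals, from RefSeq on GRCm38.p6, in which all 5 members were matched by symbol.
mmu-miR-200b-3p: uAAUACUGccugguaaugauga
mmu-miR-200c-3p: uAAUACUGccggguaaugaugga
mmu-miR-429-3p: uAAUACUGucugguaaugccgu
mmu-miR-200a-3p: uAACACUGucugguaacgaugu
mmu-miR-141-3p: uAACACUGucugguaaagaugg
Mir200b, Mir200c and Mir429 share the seed AAUACUG, and Mir200a and Mir141 share the seed AACACUG. The seed groups differ at 1 seed base, U4C from miR-200b-3p to miR-200a-3p, counted from the 5′ end of the mature miRNA. No other mature miRNA of the RefSeq table carried either seed. Each group draws on both chromosomes, so a cluster holds both seeds.

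Outside the seed the sequences decide whether a read can be assigned to 1 gene. Over their first 22 bases, miR-200b-3p and miR-200c-3p differ at 2 positions, U11G and A22G, and miR-200a-3p and miR-141-3p also differ at 2, C17A and U22G. The longest stretch that a mature 3′ arm has in common with another precursor is 16 bases, between Mir200a and Mir141, and no complete mature 3′ or 5′ arm of a member occurs in another precursor of the RefSeq table. Outside the family, no precursor of that table shares more than 11 bases with a member. Reads with several alignments, 29.4% and 29.7% of the 2 libraries, entered no gene; how many of them came from shortened miR-200 reads was not tested. The mismatches that the alignment allowed are not given in the sources used here, so an exchange of reads between Mir200a and Mir141, or between Mir200b and Mir200c, was not tested.

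The tables count reads per gene and do not separate the arms of a hairpin. The 5′ arms are printed because their reads would enter the same counts, and because their seeds, in capitals, differ from those of the 3′ arms.
mmu-miR-200b-5p: cAUCUUACugggcagcauugga
mmu-miR-200a-5p: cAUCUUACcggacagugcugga
mmu-miR-429-5p: gUCUUACCagacaugguuaga
mmu-miR-200c-5p: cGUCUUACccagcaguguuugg
mmu-miR-141-5p: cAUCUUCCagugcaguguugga
The seed of miR-200b-5p and miR-200a-5p is the same, AUCUUAC, while the other members each have a 5′ arm seed that no other mature miRNA of the table has. A level below is therefore the sum of both arms, and a seed group refers to the 3′ arm of the gene.

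On mm10 the chromosome 4 cluster spans 1846 bases, chr4:156053905-156055750, on the minus strand. In the direction of transcription Mir200b (ENSMUSG00000065549.2, chr4:156055681-156055750) comes first, then Mir200a (ENSMUSG00000065400.1, chr4:156054896-156054985) after 695 bases, then Mir429 (ENSMUSG00000065427.1, chr4:156053905-156053987) after another 908. In GENCODE M21 the cluster lies within the non-coding gene Gm13648, with Mir200b and Mir200a in an intron and Mir429 overlapping an exon. The long gene model of Ttll10, which encodes a glycylase of the tubulin tyrosine ligase-like family, holds all 3 in an intron on the same strand. Coordinates are those of M21, whose gene versions of Mir200b and Mir200c (both version 3) are newer than the version 2 of the count tables. The tables were made with the M4 annotation, so the counted interval of these 2 genes may differ from the one printed.

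The chromosome 6 cluster is shorter, 477 bases at chr6:124717914-124718390, also on the minus strand. Mir200c (ENSMUSG00000065462.2, chr6:124718322-124718390) comes first, and Mir141 (ENSMUSG00000065474.1, chr6:124717914-124717985) follows after 336 bases. Both lie in an intron of the non-coding gene Gm15884, whose annotated 5′ end is 441 bases before Mir200c. Mir141 also overlaps Gm29008, an exon of an unverified transcript model. The nearest protein-coding genes are Phb2, for a mitochondrial prohibitin, 964 bases beyond Mir141 on the other strand, and Ptpn6, for a tyrosine phosphatase of blood cells, 2317 bases from Mir200c.

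The family was well expressed in the limb, and Mir429 led it. By mean CPM the order was Mir429, Mir200c, Mir200b, Mir141 and Mir200a, and it was the same in both libraries. Mir429, a seed AAUACUG gene, had 26164 sense counts in replicate 1 and 36342 in replicate 2, or 6137 and 7055 CPM, a mean of 6596 ± 649 CPM (SD, n = 2). Mir200c, the first gene of the chromosome 6 cluster, had 16601 and 21239 counts, or 3894 and 4123 CPM, a mean of 4008 ± 162 CPM (SD, n = 2). Mir200b, the first gene of the chromosome 4 cluster, had 7822 and 11175 counts, or 1835 and 2169 CPM, a mean of 2002 ± 237 CPM (SD, n = 2). These 3 genes have the same seed and held the top places of the family in both libraries.

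The genes of the other seed were lower. Mir141 had 2344 and 3024 counts, or 549.8 and 587 CPM, a mean of 568 ± 26.4 CPM (SD, n = 2). Mir200a had 1678 and 2194 counts, or 394 and 426 CPM, a mean of 409.7 ± 22.9 CPM (SD, n = 2). Replicate 2 was the higher library for every member. No 2 members overlapped in their replicates: the lower library of each gene lay above the higher library of the next, also for the closest neighbours, Mir141 and Mir200a.

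**Figure D1:**
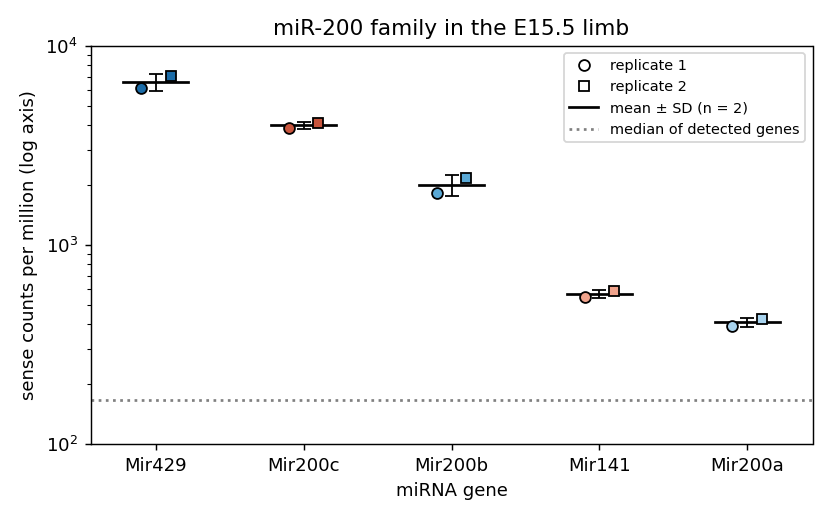
Sense CPM (log axis) of the 5 genes of the miR-200 family in the embryonic day 15.5 limb, with circles for replicate 1, squares for replicate 2, a line and bar for the mean ± SD (n = 2), and a dotted line for the median of the 340 detected genes. Mir429 is highest at 6137 and 7055, Mir200a lowest at 394 and 426, all 5 lie above the dotted line at 167, and no 2 genes overlap.

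Against the other miRNA genes of the limb, each member stood above the median of the 340 detected genes, which was 167 CPM. Mir429 was 39.5 times that median and ranked 30 among all genes by mean CPM, Mir200c ranked 51, Mir200b 70, Mir141 115 and Mir200a 126. Over the 2 libraries Mir429 ranked 35 and 28, and Mir200a 129 and 125. Summed, the family had 54609 counts in replicate 1 and 73974 in replicate 2, or 1.28% (Wilson 95% interval 1.27 to 1.29) and 1.44% (1.43 to 1.45) of the sense counts, with a mean of 1.36% ± 0.110 (SD, n = 2). Only 18 single genes outside the family exceeded its summed mean of 13584 CPM, the last of them Mir411. Reads with several alignments entered no gene, so miRNA genes with near-identical copies are undercounted in these ranks, the median and the shares. How far the places of the family would change with those reads was not tested. Intervals cover counting error only, since each was taken within 1 library. Molecular identifiers are not named in the sources used here. Reads copied from 1 molecule may therefore have been counted more than once, and the intervals may be too narrow.

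Each level had a close equal elsewhere in the profile. The gene outside the family nearest to Mir429, by Euclidean distance over log2(CPM + 1) in the 2 libraries, was Mir21a, known from mesenchyme and wound repair, with 6507 and 6618 CPM (distance 0.13). The nearest to Mir200c was Mir27b, with 3718 and 4087 CPM (distance 0.068), and the nearest to Mir200b was Mir361, with 1948 and 2113 CPM (distance 0.094). Mir671 was nearest to Mir141, with 587 and 561 CPM (distance 0.12), and Mir16-2 to Mir200a, with 414 and 402 CPM (distance 0.11). The next nearest were Mir98 for Mir429, Mir20a for Mir200c, Mir708 for Mir200b, Mir375 for Mir141 and Mir223 for Mir200a. With 1 group and 2 libraries this likeness is one of level, and it says nothing of where in the limb the genes are expressed.

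The genes with the seed AAUACUG on their 3′ arm took nearly all of the family's counts, which sum both arms. Mir429, Mir200c and Mir200b together had 50587 counts in replicate 1 and 68756 in replicate 2, which was 92.6% and 92.9% of the family. Mir200a and Mir141 together had 4022 and 5218 counts, 7.37% and 7.05% of the family. As a share of all sense counts the seed AAUACUG genes held 1.26% ± 0.105 and the seed AACACUG genes 0.0978% ± 0.00492 (SD, n = 2). The first group exceeded the second 12.6-fold in replicate 1 and 13.2-fold in replicate 2. Both clusters had the same arrangement, with the seed AACACUG member as their lowest gene.

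**Figure D2:**
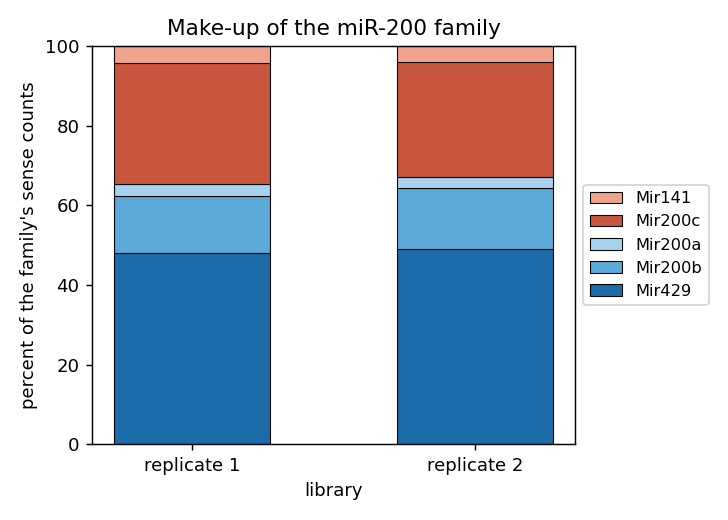
Percent of the family's sense counts taken by each gene in replicate 1 and replicate 2, with the chromosome 4 genes in blue and the chromosome 6 genes in red. Mir429 takes 47.9% and 49.1%, Mir200c 30.4% and 28.7%, Mir200b 14.3% and 15.1%, Mir141 4.29% and 4.09%, and Mir200a 3.07% and 2.97%.

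Within the chromosome 4 cluster the level did not follow the order of the genes. Mir429, the last of the 3, exceeded Mir200b, the first, 3.34-fold in replicate 1 (exact binomial 95% interval 3.26 to 3.43) and 3.25-fold in replicate 2 (3.18 to 3.32). Mir200a, which lies between them, was the lowest, and Mir429 exceeded it 15.6-fold (14.8 to 16.4) and 16.6-fold (15.9 to 17.3). Mir200b exceeded Mir200a 4.66-fold (4.42 to 4.92) and 5.09-fold (4.87 to 5.33). The 3 genes differ in level by far more than the replicates did, although they lie within 1 annotated host gene.

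Within the chromosome 6 cluster Mir200c exceeded Mir141 7.08-fold in replicate 1 (exact binomial 95% interval 6.78 to 7.40) and 7.02-fold in replicate 2 (6.76 to 7.30). The range from lowest to highest member was thus 16.1-fold by mean CPM on chromosome 4 and 7.05-fold on chromosome 6. Over the 40 miRNA clusters with at least 2 detected genes the median range was 14.9-fold. The chromosome 4 cluster was at place 20 and the chromosome 6 cluster at place 28 from the widest. These clusters held up to 29 detected genes each. Reads with several alignments entered no gene, so genes with near-identical copies elsewhere were undercounted. How far this widened the ranges of other clusters was not tested. By share of the sense counts the chromosome 4 cluster, with 0.901% ± 0.0909, was at place 15 and the chromosome 6 cluster, with 0.458% ± 0.0189, at place 23 (SD, n = 2). Counts of different sequences are compared here, and unequal capture or processing of the hairpins was not tested.

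**Figure D3:**
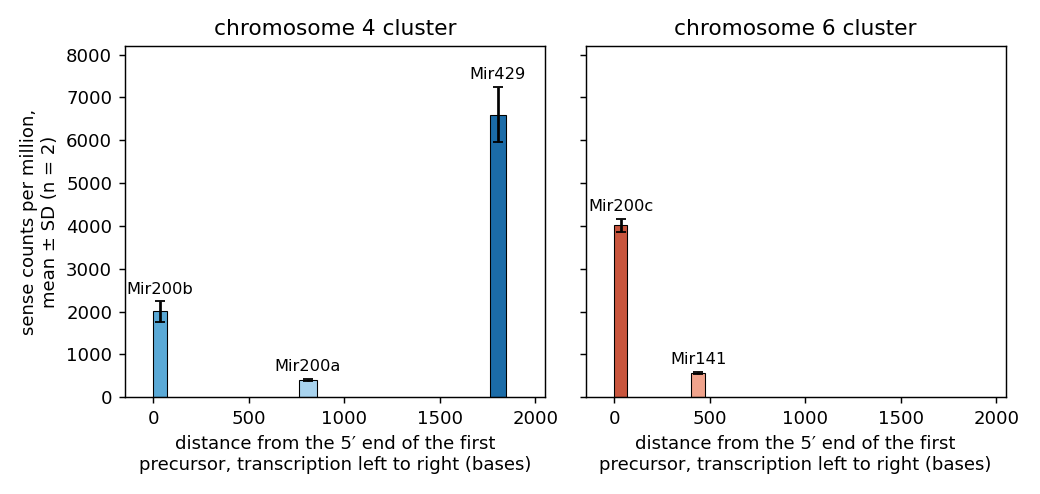
Mean ± SD (n = 2) of sense CPM for each precursor of the chromosome 4 cluster (left) and the chromosome 6 cluster (right), drawn at its distance in bases from the 5′ end of the first precursor, with transcription from left to right and bar widths to scale. In the left panel Mir429, the last gene, is highest at 6596 and the middle gene Mir200a lowest at 409.7; in the right panel Mir200c at 4008 stands above Mir141 at 568.

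All 5 members were somewhat higher in replicate 2, by 1.06-fold to 1.18-fold. The exact binomial test, which sets each of the 340 detected genes against counting noise given the library totals, was past the Benjamini-Hochberg threshold of 0.05 for 25.3% of detected genes as higher in replicate 2 for 25.6% as lower and for 50.9% in either direction. All 5 of 5 members passed it as higher. When only the 247 genes with at least 100 counts in both libraries were tested, 84 (34%) passed as higher and 83 as lower. A share among genes at the members' own counts was not taken. At these depths the test responds to small differences, and with 1 group of 2 libraries it compares the pools and no condition. The family's median log2 ratio of replicate 2 over replicate 1 was 0.11, against 0.02 over all detected genes, of which 177 were higher and 163 lower.

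By member, Mir200b had the highest ratio of replicate 2 over replicate 1, 1.18 (exact 95% interval 1.15 to 1.22, log2 ratio 0.24, adjusted p = 2.01e-29, exact binomial test). Mir429 had a ratio of 1.15 (1.13 to 1.17, log2 ratio 0.20, adjusted p = 1.05e-65, exact binomial test). Mir200c had 1.06 (1.04 to 1.08, log2 ratio 0.08, adjusted p = 1.07e-07, exact binomial test). The lower genes Mir200a and Mir141 passed narrowly, with ratios of 1.08 (1.02 to 1.15, adjusted p = 0.0298, exact binomial test) and 1.07 (1.01 to 1.13, adjusted p = 0.0341, exact binomial test). These 2 no longer passed with DESeq2 size factors or with no count minimum, which left 3 members past the threshold.

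Set against all detected genes, the log2 ratios of the members, 0.08 to 0.24, were each below the SD of 0.38 over the detected genes. Those genes reach down to 10 counts in a library, where counting error spreads the ratios, while the members had 1678 counts or more. The yardsticks of this paragraph were not limited to genes of like depth. A larger ratio in either direction was found for 44.7% of the detected genes in the case of Mir200b and for 78.8% in the case of Mir200c. The coefficient of variation between replicates was 11.8% for Mir200b and 9.85% for Mir429, and 4.05% to 5.58% for Mir200c, Mir141 and Mir200a, against 10.4% for the median detected gene.

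**Figure D4:**
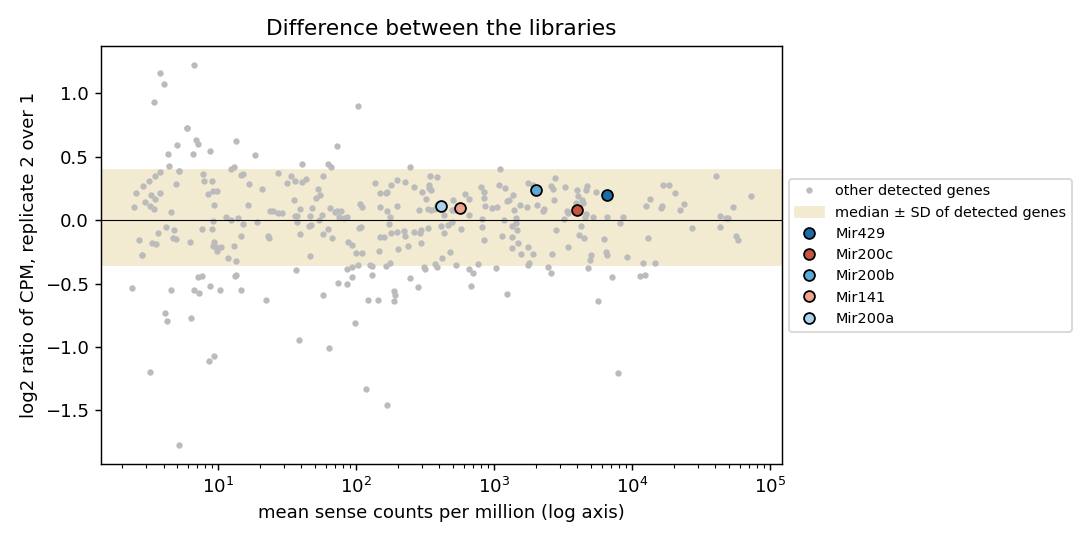
The log2 ratio of CPM of replicate 2 over replicate 1 against the mean CPM (log axis) for the 340 detected genes in grey and the 5 miR-200 genes in colour, with a band for the median ± SD of the detected genes. All 5 members lie above 0, between 0.08 and 0.24, and inside the band.

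The ratio of 2 members does not depend on the library total, and of 10 pairs 5 had a different ratio in the 2 libraries (Fisher's exact test of the counts by library, two-sided, adjusted over the 10 pairs). Of these, 4 were among the 6 pairs that join different clusters and 1 was among the 4 pairs within a cluster. The difference between these counts was not tested. The share of changed ratios among pairs of other genes was not taken, so 5 of 10 cannot be read as particular to the family. By the binomial test, 50.9% of all detected genes differed between the libraries. Mir429 over Mir200c went from 1.58 to 1.71, a change of 1.09-fold (exact 95% interval 1.06 to 1.11, adjusted p = 4.28e-09, Fisher's exact test). Mir200c over Mir200b went from 2.12 to 1.90, a change of 0.896-fold (0.864 to 0.928, adjusted p = 4.52e-09, Fisher's exact test). Mir200b over Mir141 and Mir429 over Mir141 changed by 1.11-fold and 1.08-fold (adjusted p = 0.00371 and 0.0258, Fisher's exact test). The remaining pair, Mir200b over Mir200a, lies within the chromosome 4 cluster and changed by 1.09-fold (1.02 to 1.17, adjusted p = 0.0271, Fisher's exact test).

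No difference was detectable for the other 5 pairs. Mir200c over Mir141 changed by 0.992-fold, with an exact 95% interval of 0.936 to 1.05, and Mir429 over Mir200b by 0.972-fold, with an interval of 0.941 to 1.005. Summed by cluster, in a comparison chosen after the values were seen, the chromosome 4 genes exceeded the chromosome 6 genes 1.88-fold in replicate 1 and 2.05-fold in replicate 2. This was a change of 1.09-fold (exact 95% interval 1.06 to 1.11, adjusted p = 2.58e-12, Fisher's exact test over 2 comparisons). Summed by seed, also after the values were seen, the change was 1.05-fold (1.004 to 1.09, adjusted p = 0.0332, Fisher's exact test over the same 2). The log2 ratios of the 3 chromosome 4 genes spanned 0.13 and those of the 2 chromosome 6 genes 0.012, against a median span of 0.20 over the 40 clusters. Those clusters held up to 29 detected genes and were not matched for number of genes or depth, both of which affect a span.

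**Figure D5:**
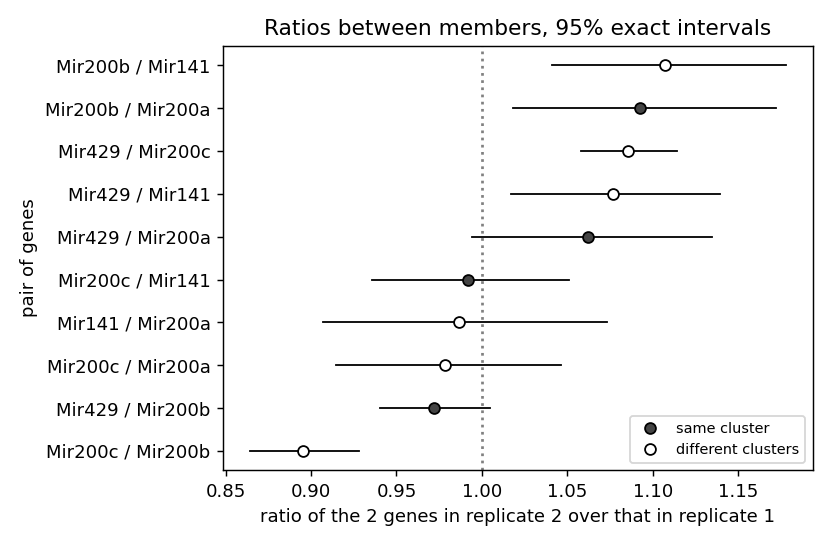
Change of the ratio between 2 members, as the ratio in replicate 2 over that in replicate 1, with exact 95% intervals that cover counting error only, filled points for pairs in the same cluster and open points for pairs across clusters. All changes lie between 0.896 and 1.11, and 5 of the 10 intervals leave out 1.

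The family was set beside Mir203 and Mir205, the leading miRNA genes of the epidermis. Mir203, which promotes keratinocyte differentiation, had 67775 and 77287 CPM, and the 5 miR-200 genes together came to 18.9% and 18.6% of its counts. Mir205, a miRNA of basal and stratified epithelium, had 15666 and 16746 CPM, and the family came to 81.8% and 85.8% of it. The log2 ratio of replicate 2 over replicate 1 was 0.17 for the summed family, 0.19 for Mir203 and 0.10 for Mir205. The ratio of the family to Mir203 in replicate 2 was thus 0.983 times that in replicate 1 (adjusted p = 0.00595, Fisher's exact test). The ratio of the family to Mir205 was 1.05 times that in replicate 1 (adjusted p = 8.28e-10, Fisher's exact test over the 2 comparisons). These sums join members that moved unequally. The log2 ratios of Mir200b (0.24) and Mir429 (0.20) were above that of Mir203. Those of Mir200a (0.11), Mir141 (0.095) and Mir200c (0.083) were below it, and the last 2 were also below the 0.096 of Mir205. Single members were not tested against Mir203 or Mir205.

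Lists of other miRNA genes give the setting, to be read against the 25.3% of all detected genes that passed as higher and the 25.6% that passed as lower. With at least 100 counts in both libraries, 84 of 247 genes (34%) passed as higher and 83 as lower, so these shares depend on depth. Of 6 genes listed for stratified epithelium, 4 passed as higher in replicate 2, 0 as lower and 2 did not pass, with a median log2 ratio of 0.12. Of 7 genes listed for glandular and sensory epithelium, 4 passed as higher, 0 as lower and 3 did not pass, with a median of 0.20. The 7 took in Mir34c, which passed, and Mir34b and Mir449a, which did not. Whether these genes fit the label was not tested. Led by Mir182 with 4555 ± 54.3 CPM and Mir183 with 2564 ± 342 CPM (SD, n = 2), that list held 0.924% ± 0.0727 of the sense counts, against 1.36% ± 0.110 for the miR-200 family. Of 8 mesenchymal genes, led by Mir214 and Mir143, 3 passed as higher and 3 as lower, with a median of 0.09, and they held 4.24% ± 0.0751.

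The tissue label was checked against markers of limb and of other organs. All 14 limb markers were detected and together held 22.7% and 24.4% of the sense counts. Of 14 counted markers of other cells, 8 were detected, with 0.158% and 0.171% of the counts in sum. The neuronal Mir124a-1, Mir124a-2 and Mir124a-3 and Mir9-2 had 0 counts in both libraries, which allows up to 0.704 and 0.582 CPM. The neuronal Mir9-3 had 9 and 7 counts, or 2.11 and 1.36 CPM, and fell below the count minimum. These genes belong to families with near-identical copies, whose common reads were not counted. Of the 8 detected, 4 passed as higher in replicate 2, 0 as lower and 4 did not pass, with a median log2 ratio of 0.15. Over all detected genes, 25.3% passed as higher and 25.6% as lower. The 2 with the highest mean CPM were the endocrine Mir375, at 572 and 658 CPM, which passed, and the myeloid Mir223, at 427 and 439.7 CPM, which did not. Mir375 is also in the list for glandular and sensory epithelium, so its counts need not come from cells foreign to the limb. The muscle miRNA Mir206 moved the other way, from 11050 to 4787 CPM. The part of differences in the make-up of the pools in the miR-200 values was not tested.

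No antisense reads were counted at the family. Each of the 5 genes had 0 antisense counts in both libraries, so counts irrespective of strand were equal to sense counts. For Mir429 this allows an antisense share of up to 0.0115% in replicate 1 and 0.00825% in replicate 2, and for Mir200a, the shallowest member, of up to 0.179% and 0.137%.

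The chromosome 4 genes lie in the non-coding gene Gm13648, whose RefSeq start is 4052 bases before Mir200b. Its promoter window is shown because Zeb proteins are known to bind E-boxes before the miR-200 clusters, and because this gene holds Mir429, the leading member. It covers chr4:156059753-156060052 of GRCm38.p6 on the minus strand, 250 bases before to 50 after the start, with the motif CACCTG in capitals.
Gm13648 promoter: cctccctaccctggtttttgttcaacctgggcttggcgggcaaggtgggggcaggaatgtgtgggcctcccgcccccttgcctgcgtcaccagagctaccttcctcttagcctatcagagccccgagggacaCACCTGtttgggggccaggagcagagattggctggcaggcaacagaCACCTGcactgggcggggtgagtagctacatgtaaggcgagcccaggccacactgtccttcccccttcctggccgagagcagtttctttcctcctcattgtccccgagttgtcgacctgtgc
The motif CACCTG and its reverse complement CAGGTG were searched, so that both strands are covered. CACCTG was found 2 times, starting 118 and 72 bases before the annotated start, and CAGGTG 0 times. At least 1 such motif was present in 20.2% of the 32851 promoter windows of the table, and at least 2 in 2.88%. A match is a description of letters, and binding was not measured here.

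The seeds can be set beside the targets for which the family is known. In the longest annotated 3′ UTR of each of 20813 protein-coding genes (GENCODE M21), the 7 letters that pair with the seed AAUACUG, which are spelled CAGTATT, occurred at least once in 13.4% of genes and at least 3 times in 0.447%. The letters that pair with AACACUG, spelled CAGTGTT, occurred at least once in 17.3% and at least 3 times in 0.889%. The UTRs of Zeb1 (2401 bases) and Zeb2 (4941 bases) each held 5 matches to the first and 4 to the second. Over all genes, 6 held 5 or more of the first and 52 held 4 or more of the second. Counting only matches followed by an A, Zeb1 held 3 of the first and 0 of the second, and Zeb2 held 4 and 2. For Zeb2, 1 match of each kind is printed with the paired letters and the following A in capitals, at positions 458 and 209 of its 3′ UTR.
Zeb2, seed AAUACUG: cgcactacagtgcatCAGTATTA
Zeb2, seed AACACUG: tgcaaaaattttgtaCAGTGTTA
Longer UTRs hold more matches by length alone, and the median UTR had 976 bases. The matches describe sequence only, since no messenger RNA was measured.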

How the data were processed

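MicroRNA-seq was performed on 2 biological replicates of 1 group. The authors deposited unnormalized whole-number counts of reads for each miRNA gene on mm10 with annotation M4, per the deposited README; the aligner, counter and trimming are not given in the sources used here. The 3 count columns had no header and were taken, from their values, as counts irrespective of strand, sense and antisense. The 4 summary lines entered no total; multiply aligned reads (29.4% and 29.7%) entered no gene.

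Identifiers without version were matched to GENCODE M21 symbols (1894 of 1973). Each sense count was scaled to 1000000 by its library's sense total, 4263630 or 5151214. Genes with at least 10 counts in both libraries were tested by an exact two-sided binomial test with Benjamini-Hochberg adjustment over all 340 (scipy 1.17.1, Python 3.11.15). The test was checked on simulated data with counting noise only. That check does not cover variation between pools. A quasi-likelihood test needs 2 groups. The binomial and Fisher tests compare 2 libraries against counting noise. Alternatives were TMM (edgeR 4.0.16) and DESeq2 1.42.0 size factors, all reads as total, both strands and other count minimums (R 4.3.3).

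The members and lists were chosen with earlier results of these data known. The 5 members are named always, with the 2 nearest genes of each and at most 2 leading genes of each list; Mir9-1 of the marker list is not analysed here. Other genes were named after their values were seen.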

Additional observations from a re-analysis of the deposited data

How the results depend on the processing

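All 5 members were higher in replicate 2 under every scaling, strand setting, count minimum and test tried. The number past the threshold was 3 of 5 with DESeq2 size factors and 3 of 5 with no count minimum, when 694 genes were tested in place of 340; Mir200a and Mir141 were lost in both. It stayed at 5 with TMM factors, all reads as total, both strands, at least 100 counts, a chi-square test, or a total without Mir203, the last chosen after seeing the data. No scaling moved the median log2 ratio of all genes by over 0.1. With all reads as total, unmapped and multiply aligned reads included, the family held 0.638% in place of 1.36%, by construction. Without replicate 1 the family's share was 1.44% and without replicate 2 it was 1.28%. Irrespective of strand, the number of pairs with a changed ratio was the same, as no member had antisense counts, and both comparisons with Mir203 and Mir205 kept their direction and stayed past the threshold. The biological coefficient of variation over detected genes was 14.7%, and 15.2% with no minimum. No paired analysis was possible because the series has 1 group. Depth limited the comparison between libraries most for Mir200a and Mir141, which had the fewest counts of the family.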
